A study of Mus musculus with 16 samples.

Results

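The nuclear genes that encode the subunits of the mitochondrial respiratory chain were followed in the hippocampus of mice in which the transcription factor CREB was either activated or blocked. A probe set of the Affymetrix Mouse Genome 430 2.0 array was taken as a member when its annotation held exactly 1 gene symbol and that symbol was Nduf, Sdha to Sdhd, Uqcr, Cyc1, a Cox4 to Cox8 subunit or Atp5, without assembly factors. This gave 170 probe sets of 83 genes, of 45101 probe sets on the array. Of these, 152 probe sets of 80 genes had an intensity above 99 on at least 2 of the 16 arrays and are described here as the members, among 27047 probe sets of the whole array that passed the same filter. Complex I held 70 members of 33 genes, complex II 8 of 4, complex III 14 of 9, complex IV 31 of 17 and complex V 29 of 17. Ndufa4 and Ndufa4l2 carry complex I names and were counted with complex IV, where the protein NDUFA4 is now placed. The 18 probe sets that did not pass included the sole ones of Cox4i2, Cox7b2 and Ndufb4. Just inside the filter, on 2 arrays each, were Ndufa12 1425919_at and Cox5b 1436149_at, and just outside it, on 1 array each, were Uqcrq 1427880_at and Cox7c 1459884_at. On all 16 arrays, 137 members were above 99. A further 10 probe sets matched the names but listed several symbols and were left out.

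Each array held hippocampal RNA pooled from 3 to 4 mice alike in age, sex and genotype, and the strain is given as C57BL/6J. VP16-CREB joins CREB to a viral activation domain, so that its target genes are switched on without an upstream signal, and A-CREB is a dominant negative protein that dimerises with CREB and prevents DNA binding. The groups were VP16-CREB mice (genotype tetO-VP16-CREB) and WT littermates kept on doxycycline (dox) until 3 weeks before the experiment and taken at 6 weeks of age (3 pools each), the same 2 genotypes taken 1 week after dox removal at 3 weeks of age (2 pools each), and A-CREB mice (genotype TetO-A-CREB-95) and WT littermates raised without dox and taken at 6 weeks (3 pools each). Both VP16-CREB cohorts, littermates included, had received dox early in life, and the A-CREB cohort had not. The tetO transgenes need a second, driver transgene, which the labels do not name. The question asked of the respiratory chain was whether its expression moved with gain or loss of CREB function. The pools are separate RNA samples. The p-values measure the spread between pools within groups, estimated jointly over all 6 groups, while each transgene comparison rests on the pools of 1 cohort.

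Complex I (NADH dehydrogenase) and complex II (succinate dehydrogenase) pass electrons to ubiquinone, complex III (the cytochrome bc1 complex) passes them on to cytochrome c, and complex IV (cytochrome c oxidase) hands them to oxygen. Complexes I, III and IV pump protons across the inner mitochondrial membrane, and complex V (ATP synthase) uses the gradient to make ATP. Neurons depend on this pathway for most of their ATP, and most subunits are encoded in the nucleus and expressed in nearly every cell type. CREB binds the cAMP response element (CRE), whereas NRF1, the ETS family factor GABP and YY1 are the factors classically tied to respiratory chain promoters.

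Promoter windows of RefSeq genes (build GRCm38.p6, 250 bases before to 50 after each start) were matched by gene ID to 65 of the 80 member genes, which gave 70 windows. The letters of a motif were sought on both strands. The full CRE, TGACGTCA, was present in 3 of the 70 windows (4.29%), against 1.79% of all 32851 windows, and the shorter TGACG site, which is contained in the full CRE, in 26 (37.1%) against 20.8%. The NRF1 motif (GCGCA and GCGC with any base between them) was found in 15 windows (21.4%) against 4.6%, the ETS motif CCGGAAG in 17 (24.3%) against 8.86%, and the YY1 motif AAGATGGC in 9 (12.9%) against 2.75%. All 5 shares were thus higher in member windows than over all windows, though that of the full CRE rests on only 3 windows. The windows compared were not matched for base composition, and a match of letters is not a bound site. The bases before the start are shown for the 3 genes with a full CRE, in capitals: Ndufa10 (chr1:92473759-92474008, minus strand), Ndufb2 (chr6:39592315-39592564, plus strand) and Uqcrfs1 (chr13:30545317-30545566, minus strand). They are set beside Cox6a1 (chr5:115348959-115349208, minus strand), a subunit gene of complex IV with 2 NRF1 matches and 1 ETS match in capitals, and Cox7a1 (chr7:30183921-30184170, plus strand), the gene of the member called in the VP16-CREB mice below, whose window held neither the CRE nor its shorter form.
Ndufa10: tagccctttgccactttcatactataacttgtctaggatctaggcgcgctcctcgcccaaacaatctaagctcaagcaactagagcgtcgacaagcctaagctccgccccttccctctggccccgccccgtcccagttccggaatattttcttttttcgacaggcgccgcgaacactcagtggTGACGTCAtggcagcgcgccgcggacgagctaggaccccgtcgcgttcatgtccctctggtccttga
Ndufb2: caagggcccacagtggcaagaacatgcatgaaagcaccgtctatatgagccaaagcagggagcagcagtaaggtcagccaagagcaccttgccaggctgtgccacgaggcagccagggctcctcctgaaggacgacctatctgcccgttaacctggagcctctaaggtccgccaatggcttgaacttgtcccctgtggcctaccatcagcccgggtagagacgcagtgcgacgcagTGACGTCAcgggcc
Uqcrfs1: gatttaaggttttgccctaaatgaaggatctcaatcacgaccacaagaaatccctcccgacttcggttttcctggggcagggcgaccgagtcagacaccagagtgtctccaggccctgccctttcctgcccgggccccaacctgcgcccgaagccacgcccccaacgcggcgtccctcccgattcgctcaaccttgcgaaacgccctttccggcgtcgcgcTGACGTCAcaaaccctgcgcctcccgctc
Cox6a1: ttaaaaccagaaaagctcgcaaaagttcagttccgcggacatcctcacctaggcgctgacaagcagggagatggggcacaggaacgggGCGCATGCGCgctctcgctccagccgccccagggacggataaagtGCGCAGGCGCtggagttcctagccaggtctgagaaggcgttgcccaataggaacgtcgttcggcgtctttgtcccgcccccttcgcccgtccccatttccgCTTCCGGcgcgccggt
Cox7a1: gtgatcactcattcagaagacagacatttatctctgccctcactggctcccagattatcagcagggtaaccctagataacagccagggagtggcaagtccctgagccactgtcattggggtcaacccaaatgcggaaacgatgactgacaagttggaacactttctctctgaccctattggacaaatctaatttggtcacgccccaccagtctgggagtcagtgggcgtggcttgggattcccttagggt
The CRE lies 67 to 60 bases before the start of Ndufa10, 14 to 7 before that of Ndufb2 and 29 to 22 before that of Uqcrfs1.

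Most of the respiratory chain hybridised strongly, and 124 of the 152 members had a mean intensity above 1000. Summed over the members, the intensity was between 3.21% and 3.83% of the whole array on every array. The mean deviation of all members from their 16-array means, on the log2 scale, was 0.033 ± 0.134 (SD, n = 3) in the 3-week controls and -0.0016 ± 0.151 (n = 3) in the VP16-CREB pools of 3 weeks. It was 0.029 ± 0.123 (n = 2) and 0.065 ± 0.074 (n = 2) at 1 week, and -0.050 ± 0.075 (n = 3) and -0.044 ± 0.028 (n = 3) in the A-CREB cohort, with overlapping pools in each of the 3 pairs. Within the 3-week cohort, control pool 2 (0.185) and VP16-CREB pool 1 (0.172) stood above the other 4 pools, which lay between -0.096 and -0.024, and these 2 arrays also had the highest mean intensity over all probe sets (759 and 751 against 690 to 712). Results that rest on them are therefore also given without both. RNA integrity, read as the 3′ to 5′ signal ratio of actin, was alike in the 3-week controls (1.36 to 1.56) and the VP16-CREB pools (1.44 to 1.61), and the highest ratio, 2.48, was that of A-CREB pool 3. Xist, the transcript of the inactive X chromosome, was at 34.5 and 63.4 in pool 1 among A-CREB controls and in the same-numbered pool of A-CREB mice and at 3611 or more in every other pool, so that each of these 2 groups held 1 pool that differed in this mark of sex.

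**Figure D1:**
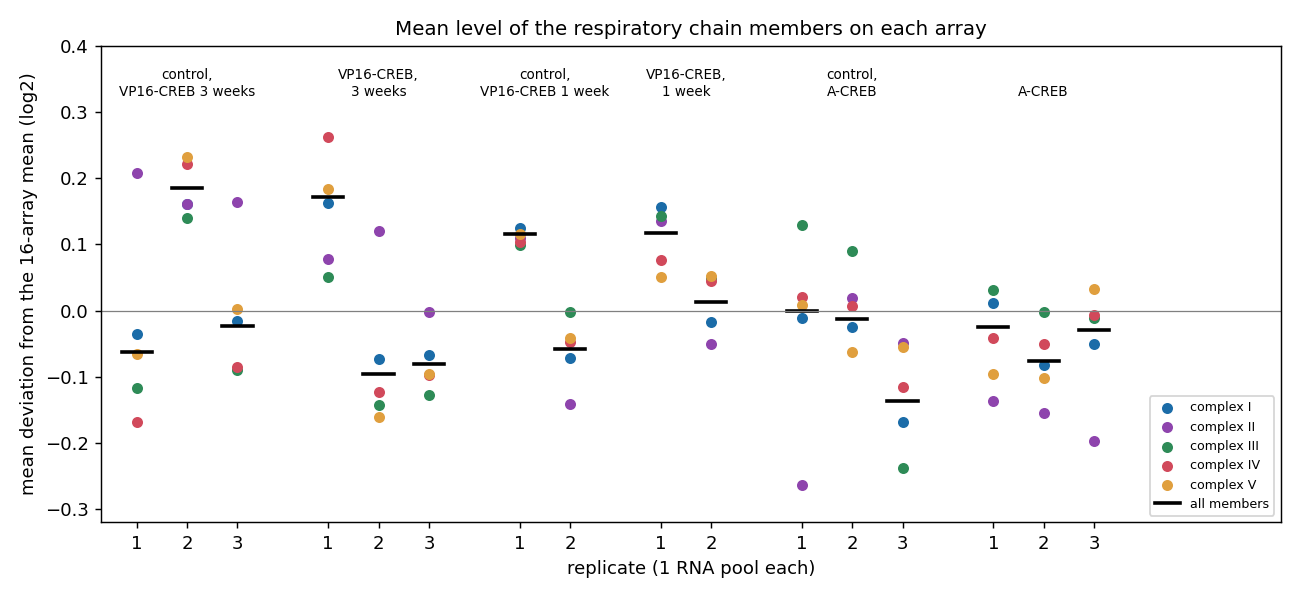
Mean deviation of respiratory chain members from their 16-array means (log2, vertical axis) on each of the 16 arrays, grouped by genotype and cohort; coloured points are the 5 complexes and black bars all 152 members. Control pool 2 (0.185) and VP16-CREB pool 1 (0.172) of the 3-week cohort lie highest, and transgenic and control bars overlap in every cohort.

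After 3 weeks of VP16-CREB, 1 of the 152 members rose, Cox7a1 of complex IV, and none fell (limma, Benjamini-Hochberg adjusted p under 0.05 over 27047 probe sets). This is 0.658% of the members, where 3.93% of all probe sets were called (3.28% higher and 0.651% lower). At an unadjusted p under 0.05, which 13.5% of all probe sets passed, there were 2 members higher and 1 lower. The median log2 difference of the members was -0.066, beside -0.014 over all probe sets, and 112 members (73.7%) were below 0, against 52% of all probe sets. That lean depended on the scaling. After quantile normalization 86 members were below 0, with a median of -0.013 beside -0.040 over all probe sets. After each array was centred on its median 123 were below 0, with a median of -0.12 beside -0.066 over all probe sets. Without control pool 2 and VP16-CREB pool 1, 106 members were below 0 (median -0.080) and none was called. The direction of the median also turned on 1 array: it was 0.026, with 66 members below 0, without control pool 2, and -0.149, with 128 below 0, without VP16-CREB pool 1. Pools of the 2 genotypes did not overlap for 9 members in the higher and 9 in the lower direction, that is, 18 of 152, where 14.9% and 12.8% of all probe sets had no overlap. The 95% interval of the difference lay within a 1.5-fold change either way for 115 members and within 2-fold for 142. Among the 124 members with a mean intensity above 1000 the differences ran from -0.28 to 0.25, none was called, and all 124 intervals lay within 2-fold. The wider differences, -0.52 to 0.99, belonged to the 28 members with a mean of 1000 or less.

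The hippocampus of these mice changed in its cell type markers at the same time. Of 10 microglial marker genes, 9 rose (median log2 difference 1.74), and their summed intensity was 36020 to 42065 in the VP16-CREB pools against 10258 to 10325 in the controls. All 6 markers of dentate granule neurons fell (median -1.59), with sums of 3630 to 4622 against 8814 to 9055. Of 8 astrocyte markers 2 rose, Gfap and Aqp4, with sums of 57602 to 70034 against 41637 to 48667, and of 7 interneuron markers 2 rose, Slc32a1 and Npy, with sums of 31999 to 35624 against 25958 to 28048. None of 8 general neuron markers was called (median -0.25, sums 69346 to 96516 against 81696 to 114277), nor of 5 markers of pyramidal neurons (median -0.54, sums 4736 to 4888 against 6657 to 7172), 6 of oligodendrocytes (median 0.075), 5 of endothelial cells (0.037) and 6 of choroid plexus (-0.63). In bulk tissue, fewer cells of a type and less RNA per cell cannot be told apart, and the part of these shifts in the values of the respiratory chain was not tested.

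Complex I, the entry point for NADH, held 70 members with a median log2 difference of -0.055 at 3 weeks, a range from -0.37 to 0.59 and no call. Ndufs1 1425143_a_at, the large iron-sulphur subunit, read 3565, 4232 and 3764 in the controls and 3867, 3526 and 3230 in VP16-CREB mice (-0.12, 95% interval -0.42 to 0.18). Ndufv1 1415966_a_at, the flavoprotein that takes electrons from NADH, read 6018, 7220 and 6311 against 6822, 5788 and 5764 (-0.089, interval -0.54 to 0.36). In both core subunits the pools of the genotypes overlapped. The highest difference in the complex was that of Ndufa3 1430149_at, a dim probe set for an accessory subunit, with 114, 95.5 and 68.8 in controls and 147, 127 and 153 in VP16-CREB pools (0.59, interval 0.19 to 0.98, adjusted p = 0.115). These pools did not overlap, but the bright probe set of the same gene, Ndufa3 1428464_at, had 9735, 13983 and 9808 against 12768, 9280 and 9725 (-0.071, interval -0.45 to 0.31). The lowest difference was that of Ndufab1 1435934_at, the mitochondrial acyl carrier protein, at 266, 278 and 299 against 227, 225 and 195 (-0.37, interval -1.13 to 0.39, adjusted p = 0.784).

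The 2 complex I genes with a full CRE in the window shown above were not called in any of the 3 transgene comparisons. Ndufa10 1448934_at, an accessory subunit, read 7916, 8684 and 7978 in the 3-week controls and 7771, 7204 and 7466 in VP16-CREB pools, which lay just below all controls (-0.13, interval -0.59 to 0.33, adjusted p = 0.904), and differed by -0.013 at 1 week and -0.066 with A-CREB. Ndufb2 1448483_a_at, a small membrane subunit, read 5848, 6325 and 5633 against 6495, 5486 and 5357 (-0.042, interval -0.41 to 0.33), and differed by -0.019 at 1 week and -0.14 with A-CREB. Its dim probe set 1442658_at, which was above 99 in the 3-week cohort and on no other array, differed by -0.087 at 3 weeks, -1.09 at 1 week (interval -2.02 to -0.17, adjusted p = 0.745) and 0.41 with A-CREB (interval -0.34 to 1.16). Uqcrfs1 1450968_at, the Rieske iron-sulphur protein of complex III and the third gene with a full CRE, read 6059, 7531 and 6193 against 7627, 6267 and 6564 (0.050, interval -0.24 to 0.34), and differed by -0.0034 at 1 week and -0.052 with A-CREB. For the bright probe sets of these 3 genes the intervals at 3 weeks lay within a change of 2-fold.

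Complex II had 8 members with a median of -0.087 and no call at 3 weeks. Sdha, the flavoprotein that oxidises succinate, had the lowest difference at its dim probe set 1433293_at, with 337, 292 and 291 in controls and 153, 297 and 203 in VP16-CREB mice (-0.52, interval -1.06 to 0.015, adjusted p = 0.392), where 1 VP16-CREB pool lay among the controls. The bright Sdha 1426688_at read 6644, 7307 and 7048 against 6616, 6749 and 6511 (-0.078, interval -0.35 to 0.19). Sdhb, the iron-sulphur subunit, differed by -0.021 (interval -0.46 to 0.42). Sdhc 1448630_a_at, a membrane anchor, had the highest value, at 3218, 3037 and 2994 against 3331, 3310 and 3623 (0.15, interval -0.16 to 0.46, adjusted p = 0.790), with no overlap between the pools.

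Complex III had 14 members between -0.22 and 0.063, with a median of -0.058. Uqcrc1, a core subunit, read 6352, 7252 and 7090 in controls and 7445, 7327 and 6831 in VP16-CREB mice (0.063, interval -0.32 to 0.44). The other core subunit, Uqcrc2, had the lowest value in the complex at 1435757_a_at, with 6715, 7150 and 6593 against 6880, 5200 and 5579 (-0.22, interval -0.63 to 0.19, adjusted p = 0.746), and its second probe set 1428631_a_at gave the same -0.22 with pools that did not overlap (6651, 7382 and 6841 against 6261, 5873 and 5793; adjusted p = 0.571). Cyc1, the heme protein that reduces cytochrome c, differed by -0.12 (interval -0.46 to 0.21).

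Complex V had 29 members between -0.31 and 0.16 and the lowest median of the 5 complexes, -0.088, with 25 below 0 and none called. Atp5b, the catalytic beta subunit, read 16131, 21998 and 16805 in controls and 19258, 15088 and 15661 in VP16-CREB mice (-0.13, interval -0.49 to 0.23). The 3 genes for the identical c subunit of the rotor, Atp5g1, Atp5g2 and Atp5g3, differed by 0.080, -0.0025 and -0.072 at their brightest probe sets. The highest member was Atp5d 1423716_s_at, the delta subunit (5418, 7258 and 5283 against 8123, 5468 and 6590; 0.16, interval -0.28 to 0.61, adjusted p = 0.862). The lowest was the dim Atp5j2 1443495_at (176, 268 and 262 against 194, 193 and 171; -0.31, interval -0.91 to 0.29, adjusted p = 0.767), while the bright Atp5j2 1435395_s_at differed by -0.048.

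**Figure D2:**
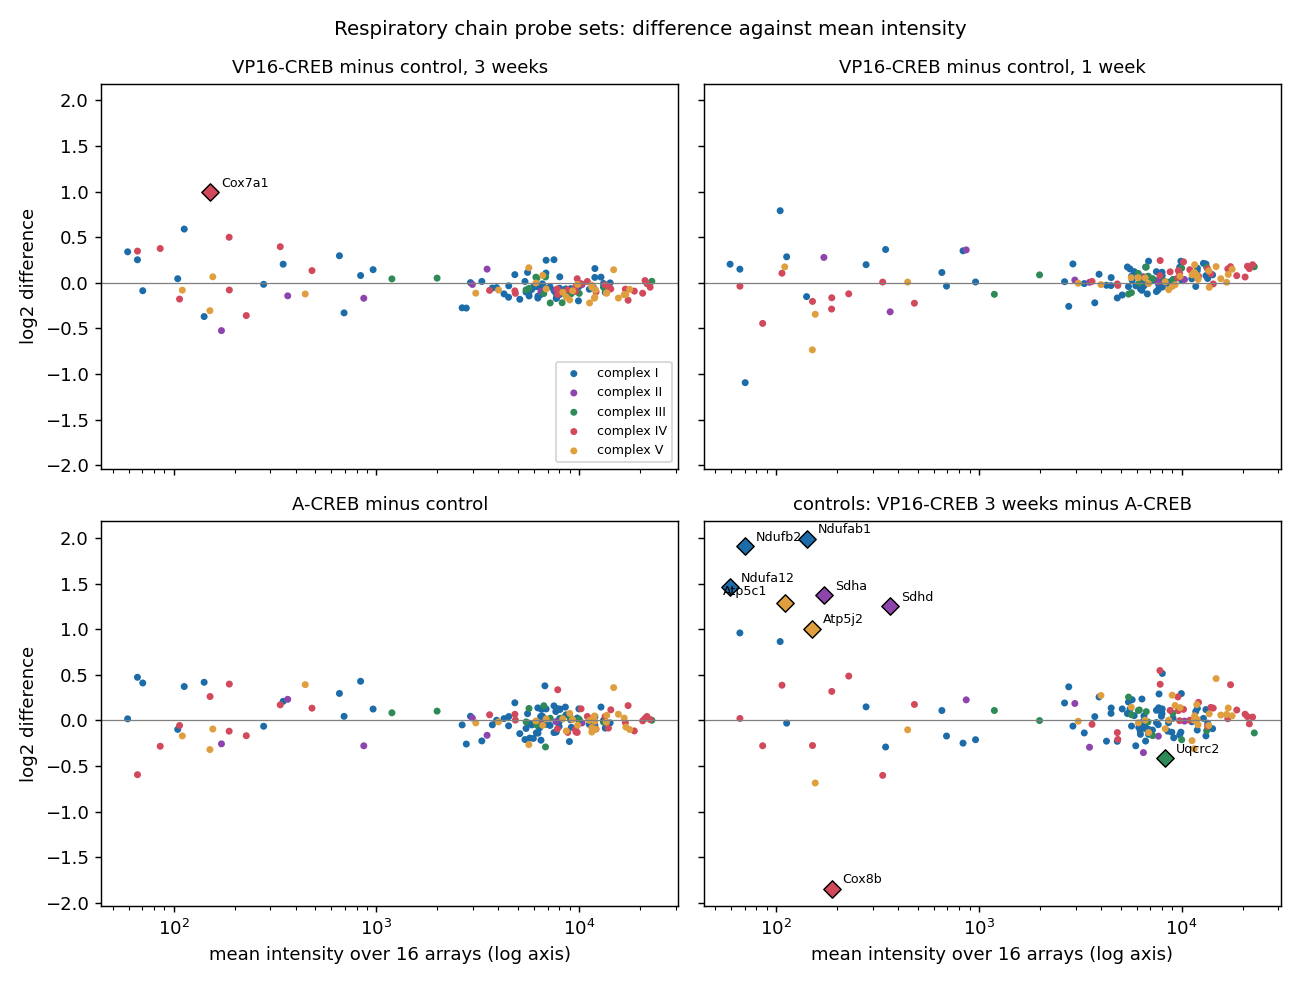
Log2 difference (vertical axis) of each of the 152 members against its mean intensity over 16 arrays (horizontal log axis) in the 3 transgene comparisons and between the controls of 2 cohorts; colour marks the complex and labelled diamonds are members called at an adjusted p under 0.05. Members with a mean intensity above 1000 lie between -0.29 and 0.38 in the 3 transgene panels and between -0.41 and 0.55 in the control panel, and the called ones are Cox7a1 (0.99) in VP16-CREB mice at 3 weeks and 9 members between controls.

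Complex IV, whose small subunits come in isoforms with different tissue patterns, held the called member. Its median at 3 weeks was -0.068. Cox7a1 1418709_at, the isoform known from heart and skeletal muscle, read 83.9, 112 and 98.1 in controls and 216, 205 and 191 in VP16-CREB mice, so that every VP16-CREB pool was above every control. The log2 difference was 0.99 (SE 0.25, interval 0.46 to 1.53, adjusted p = 0.0412), from a mean of 98.1 ± 14.2 to 204 ± 12.6 (SD, n = 3 each). The call rested on all 6 arrays: without any one of them the adjusted p was 0.0724 to 0.167, and without control pool 2 and VP16-CREB pool 1 together it was 0.185, with a log2 difference of 0.89 to 1.09 throughout. In the other cohorts the gene was not called, with 185 and 183 in the 1-week controls against 157 and 160 in VP16-CREB mice (-0.20, interval -0.86 to 0.45), and 110, 199 and 77.6 in the A-CREB controls against 177, 144 and 121 (0.26, interval -0.27 to 0.80). The 3-week controls were the lowest group, and the highest single pool of the other cohorts, an A-CREB control at 199, lay among the VP16-CREB pools of 3 weeks.

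Cox7a2, the isoform of Cox7a in most tissues, read 18478, 24224 and 19546 in the 3-week controls and 24787, 17981 and 19234 in VP16-CREB mice (1416970_a_at, -0.0098, interval -0.39 to 0.37). The other broadly expressed isoforms also had differences near 0: Cox4i1 differed by -0.11 (interval -0.50 to 0.27), Cox6a1 1417417_a_at by -0.049 (interval -0.55 to 0.46), Cox6b1 1436757_a_at by 0.024 (interval -0.41 to 0.46) and Cox8a 1416112_at by -0.040 (interval -0.42 to 0.34). At 1 week and with A-CREB the brightest probe sets of these 5 genes differed by -0.13 to 0.20. The muscle or testis isoforms were dim. Cox6a2 1417607_at, the muscle isoform, read 544, 524 and 429 against 601, 513 and 525 at 3 weeks (0.13, interval -0.17 to 0.44). Cox6b2, known from testis, read 169, 221 and 198 against 299, 223 and 262 (0.39, interval -0.22 to 1.01, adjusted p = 0.665), with no overlap between the pools. Cox8b, a muscle isoform, read 11.1, 59.0 and 90.2 against 98.3, 47.0 and 56.8 (0.50, interval -0.61 to 1.61) in the 3-week cohort, below 99 on all 6 arrays. The lowest member of complex IV was Cox8c, a testis isoform, with 274, 298 and 322 against 208, 265 and 219 (-0.36, interval -0.71 to -0.00495, adjusted p = 0.362). Ndufa4, a subunit of complex IV, differed by -0.068 (interval -0.63 to 0.49), and its dim relative Ndufa4l2 by -0.18 (interval -0.85 to 0.49). The dim isoforms thus varied more than the bright ones, and Cox7a1 was the member that was called.

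**Figure D3:**
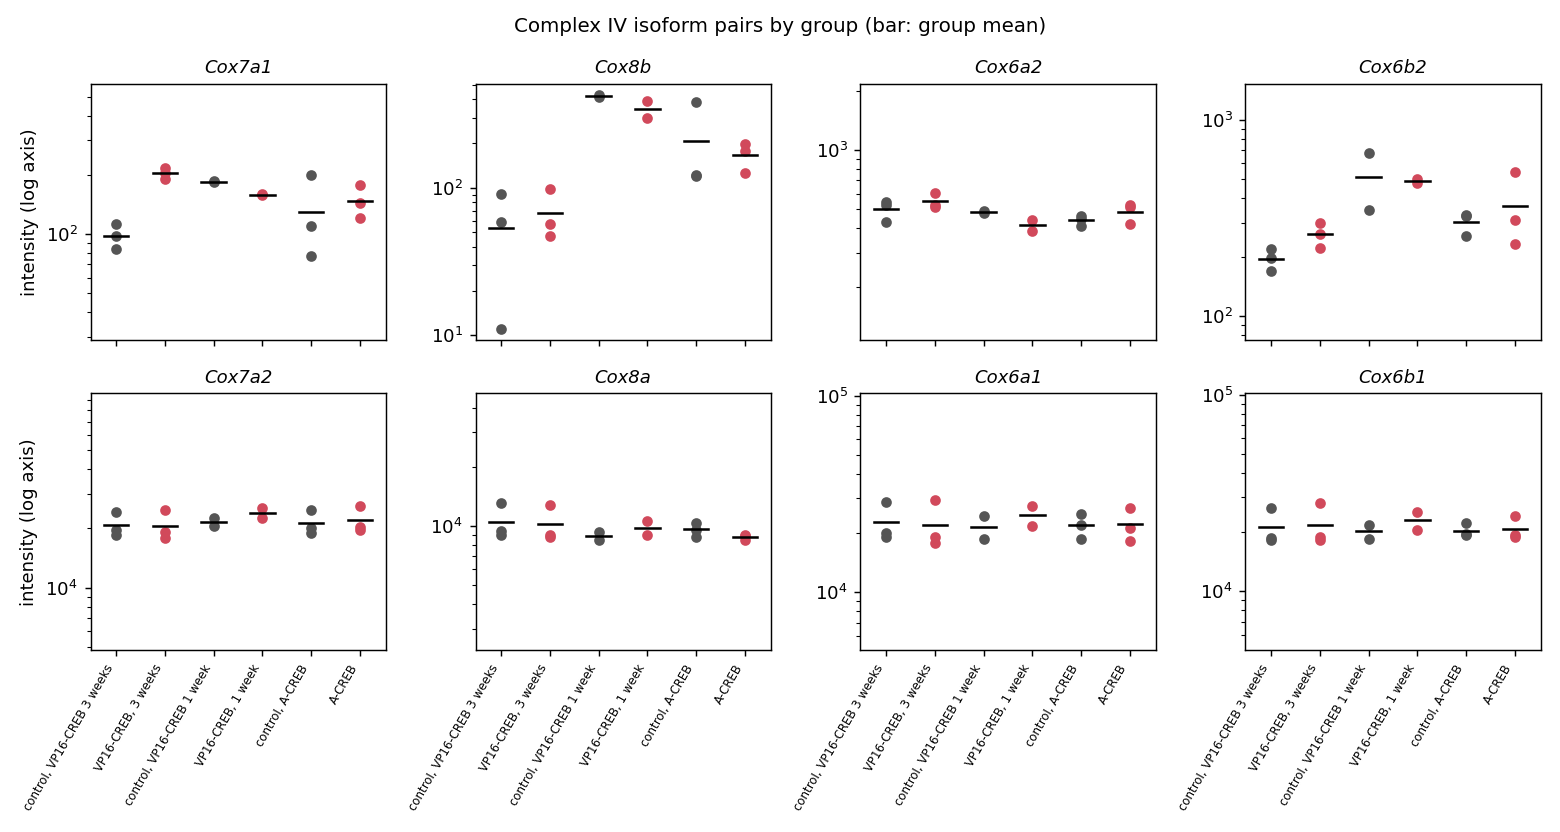
Intensity of 8 complex IV isoform genes (vertical log axis, spanning at least 20-fold in each panel) in the 6 groups; grey points are control pools, red points transgenic pools and bars group means. The upper row has isoforms known from muscle or testis and the lower row the broadly expressed partners; Cox7a1 pools of VP16-CREB at 3 weeks (191 to 216) lie above their controls (83.9 to 112), and Cox8b is lowest in the 3-week cohort.

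After 1 week of VP16-CREB no member was called, where 0.237% of all probe sets were, and 2 members were lower and none higher at an unadjusted p under 0.05, which 5.27% of all probe sets passed. The median was 0.045, beside 0.018 over all probe sets, and 49 members were below 0, against 47% of all probe sets (64 after quantile normalization and 68 after median centring). The direction of this median turned when 1 array was left out: it was -0.074 without control pool 2 and -0.015 without VP16-CREB pool 1, and 0.169 without control pool 1 and 0.121 without VP16-CREB pool 2. With 2 pools a group the intervals were wider, 86 within 1.5-fold and 140 within 2-fold. Pools did not overlap for 20 members in the higher and 9 in the lower direction, where 15.7% and 12.9% of all probe sets had no overlap. The medians were 0.034 for complex I, 0.033 for II, 0.058 for III, 0.078 for IV and 0.053 for V. The largest differences were again at dim probe sets. Ndufb2 1442658_at read 56.8 and 63.8 in controls and 37.2 and 12.9 in VP16-CREB mice (-1.09, interval -2.02 to -0.17, adjusted p = 0.745), and Ndufs8 1434212_at, one of 6 kept probe sets for an iron-sulphur subunit, read 85.6 and 68.2 against 133 and 147 (0.79, interval -0.72 to 2.30). At bright probe sets of the same genes, Ndufb2 1448483_a_at differed by -0.019 and Ndufs8 1423907_a_at by 0.015. In complex V, Atp5j2 1443495_at read 147 and 194 against 60.8 and 152 (-0.74, interval -1.47 to -0.0014) and the bright Atp5j2 1435395_s_at was the highest member (0.20, interval -0.17 to 0.57). In the other complexes the extremes were Sdhc 1435986_x_at (0.36) and Sdhd 1437489_x_at (-0.32), Uqcrb (0.18) and Uqcr10 1434340_at (-0.13), and Cox6c 1434491_a_at (0.24) and Cox6a2 1457633_x_at (-0.45). Of the cell type markers at this time, 1 of 10 microglial genes (sums 18361 to 21260 against 10073 to 14559 in controls) and 1 of 8 astrocyte genes (47825 to 58590 against 41959 to 43517) rose, and none of the other lists had a call. Among those, the sums of dentate granule neuron markers (6932 to 7115 against 8719 to 9540) and pyramidal neuron markers (5543 to 5568 against 6752 to 7061) lay below all controls. Sums of the remaining lists overlapped between the genotypes.

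In A-CREB mice no member was called, and none passed an unadjusted p of 0.05. Of all probe sets 0% was called by limma after adjustment, and 4.33% had an unadjusted p under 0.05. The members were centred on the controls, with a median of -0.0022 (-0.049 to 0.037 with 1 array left out), 77 of 152 below 0 beside 49.5% of all probe sets, and a range from -0.59 to 0.47. The interval lay within 1.5-fold for 110 members and within 2-fold for 143. Pools did not overlap for 3 members in the lower direction and for none in the higher, where 3.28% and 3.54% of all probe sets had no overlap. The medians were 0.0048 for complex I, -0.033 for II, 0.018 for III, 0.0039 for IV and -0.016 for V. The highest members were Ndufc2 1431670_at (0.47), Sdhd 1437489_x_at (0.23), Uqcr10 1424364_a_at (0.16), Cox7c 1459885_s_at (0.40) and Atp5a1 1420037_at (0.39). The lowest were Ndufs8 1434213_x_at (-0.26), Sdhc 1435986_x_at (-0.28), Uqcrc1 (-0.29), Cox5b 1436149_at (-0.59) and Atp5j2 1443495_at (-0.32). The intervals of all these members included 0. Ndufc2 1431670_at (56.0 in A-CREB mice and 43.7 in controls) and Cox5b 1436149_at (48.3 and 70.1) had means below 99 in both groups. Uqcrc1, a core subunit of complex III, read 6760, 6700 and 7464 in controls and 6894, 5766 and 4645 in A-CREB mice (interval -0.67 to 0.089). None of the cell type marker lists had a call in this comparison, in which no probe set of the array was called. The summed intensity of the pyramidal neuron markers was 4988 to 5542 in A-CREB pools against 5952 to 8012 in controls, with no overlap. Sums of the other lists overlapped between the genotypes.

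The effects were also compared directly. No member was called between the VP16-CREB effects at 3 weeks and 1 week (0.0037% of all probe sets were called), and 2 had an unadjusted p under 0.05 (4.99% of all probe sets), Cox7a1 (1.20, interval 0.35 to 2.04, adjusted p = 0.674) and Cox6a2 1457633_x_at. No member was called when the 3-week effect of VP16-CREB was set against that of A-CREB, where 0.887% of all probe sets were called, and for Cox7a1 this contrast was 0.73 (interval -0.028 to 1.49, adjusted p = 0.602). The difference of Cox7a1 between these settings was therefore not resolved. The time points of VP16-CREB also differ in the age of the mice.

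Between control groups the members differed mainly at dim probe sets. The A-CREB controls (6 weeks, no dox) and the 1-week controls (3 weeks of age) had no called member and no called probe set on the array (0% by limma, with 5.56% at an unadjusted p under 0.05). For A-CREB controls minus 1-week controls the members' median was -0.063, beside -0.0071 over all probe sets. Below 0 were 67.8% of the members and 51.3% of all probe sets. Age, dox history and cohort cannot be told apart in this comparison. Between the 3-week controls and the A-CREB controls, both 6 weeks old, 9 members were called, 7 higher and 2 lower in the 3-week controls, or 5.92% of the members, where 17.5% of all probe sets were called (13.9% higher and 3.63% lower). The direction of calls moved with the scaling, to 6 higher and 6 lower after quantile normalization, where 18.3% of all probe sets were called. The median difference of all probe sets moved from 0.050 to -0.056 under that scaling and under median centring. Of these 9 members, 4 were at 99 or less in every pool of 1 or both control groups. They passed the filter through the control group where they were higher, or through arrays outside this comparison. Their calls therefore support nothing, and these 4 are given by intensity only. They are Ndufb2 1442658_at (128 ± 10.9 in the 3-week controls and 29.3 ± 15.9 in the A-CREB controls, SD, n = 3 each), Ndufa12 1425919_at (89.6 ± 9.69 and 30.1 ± 19.7), Atp5c1 1438809_at (190 ± 67.8 and 70.5 ± 18.8) and Cox8b (53.4 ± 39.8 and 208 ± 150). The calls of Ndufa12 and Cox8b were also lost in 6 and 4 of the alternative settings. Ndufab1 1435934_at had the largest log2 difference of the other 5 (281 ± 16.9 against 72.2 ± 42.1; 1.99, adjusted p = 0.0012), with 1 A-CREB control pool above 99. Sdha 1433293_at read 307 ± 26.2 against 114 ± 22.4 (1.37, adjusted p = 0.0015). The 7 higher members had mean intensities of 1000 or less and belong to genes that also have brighter probe sets, which were not called. Whole arrays of the 3-week cohort had median intensities of 119 to 129, against 74.99 to 93.2 for the other 10 arrays, and the part of this in the differences of dim probe sets was not tested. Uqcrc2 1428631_a_at was lower in the 3-week controls (6958 ± 379 against 9264 ± 289; -0.41, adjusted p = 0.0491), a call lost in 11 of 18 alternatives, among them each single array left out (adjusted p 0.0644 to 0.153). Cox8b was at 296 to 424 on the 4 arrays of 3-week-old mice and at 120 to 381 in the A-CREB cohort, above the 11.1 to 98.3 of the 3-week VP16-CREB cohort. Dox history and cohort cannot be told apart here.

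The other genes of mitochondrial energy metabolism were taken on the brightest probe set per gene. At 3 weeks of VP16-CREB, 3 of the 206 measured genes of these lists rose and none fell. This is 1.46% of them, below the 3.93% called over all probe sets. Hk2, an inducible hexokinase at the first step of glycolysis, was the 1 of 14 glycolysis genes called, with 511 ± 78.6 in VP16-CREB mice against 209 ± 24.9 in controls (SD, n = 3 each; log2 difference 1.24, SE 0.22, adjusted p = 0.0041), and the list's median was -0.050. Suclg2, a subunit of succinyl-CoA ligase, was the 1 of 23 genes of the citric acid cycle and pyruvate entry (975 ± 180 against 639 ± 47.9; 0.59, SE 0.14, adjusted p = 0.0316), and that list's median was -0.00034. Mrps6, a protein of the small mitochondrial ribosomal subunit, was the 1 of 76 mitochondrial ribosome genes (2580 ± 343 against 1560 ± 119; 0.72, SE 0.17, adjusted p = 0.0274), with a list median of -0.012. None of 42 assembly factors was called (median -0.011; Coa3 -0.21 and Cox17 -0.089 are the brightest), none of 13 carriers (median -0.049; Slc25a4, the adenine nucleotide translocator, -0.088 and Slc25a3, the phosphate carrier, 0.20), none of 15 regulators of mitochondrial biogenesis (median -0.048; Yy1 0.041 and Sirt3 -0.19) and none of 14 genes of dynamics and quality control (median -0.031; Mff -0.15 and Hspd1 -0.024). Of 9 antioxidant enzymes none was called, and their median was 0.20 (Gpx4 0.27, Sod1 0.14). In the 1-week and A-CREB comparisons no gene of these 8 lists was called. Hk2, Suclg2 and Mrps6 had differences of 0.57, -0.17 and 0.24 at 1 week and 0.28, 0.20 and 0.21 with A-CREB.

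**Figure D4:**
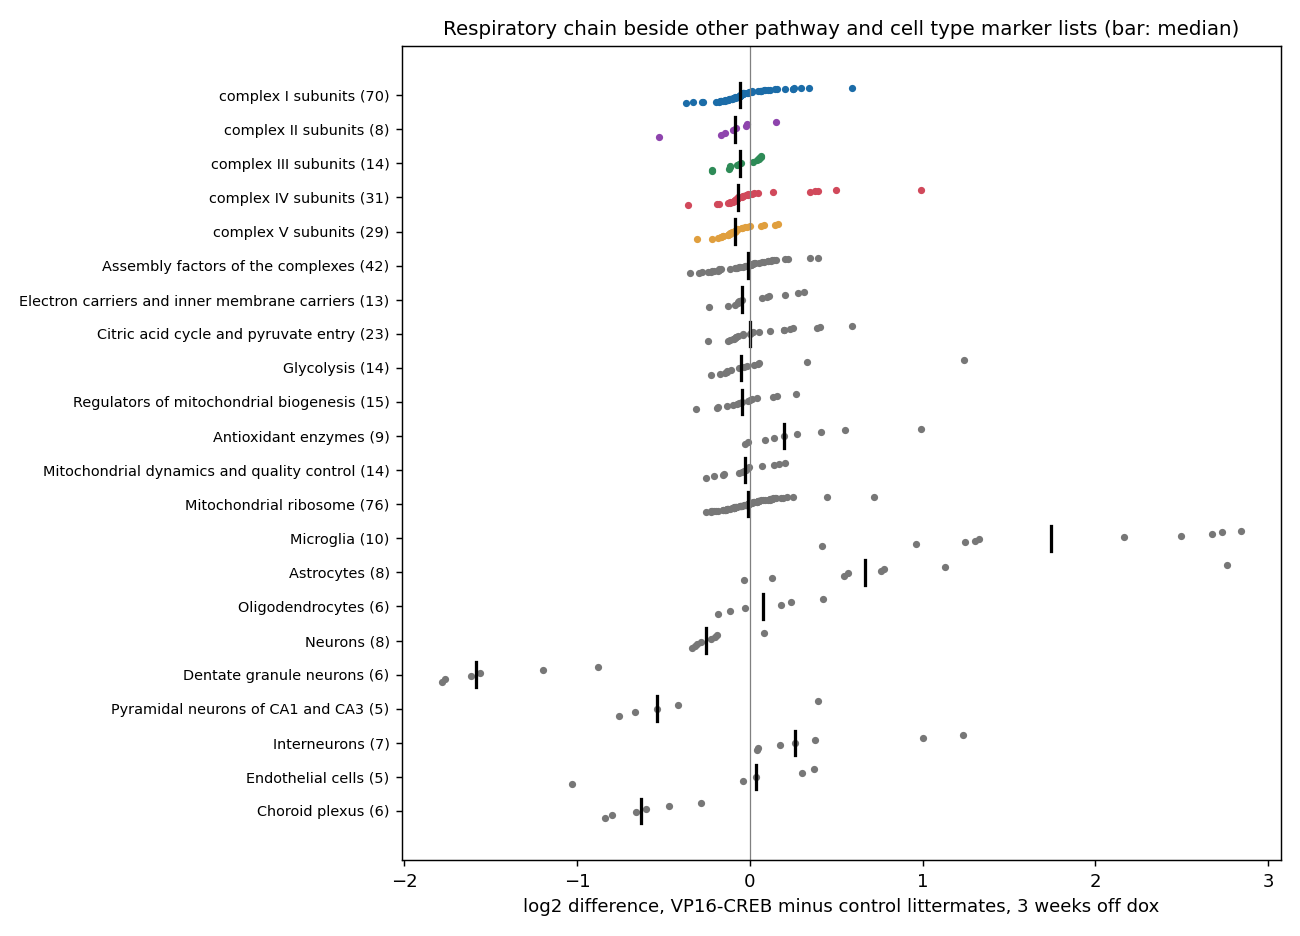
Log2 difference between VP16-CREB and control mice at 3 weeks (horizontal axis) for the members by complex (coloured, every probe set) and for genes of other mitochondrial, glycolytic and cell type marker lists (grey, 1 probe set per gene), with the number in brackets and the median as a black bar. The medians of the 5 complexes lie between -0.088 and -0.055, beside 1.74 for microglial and -1.59 for dentate granule markers.

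The members as a set varied less between pools than the array as a whole, while their dimmer part varied more. No comparison at like intensity was made. The median residual SD on the log2 scale was 0.205 for members and 0.275 for all probe sets, with 0.1999 for members above a mean intensity of 1000 and 0.364 for the others. Of the 152 members, 27 are probe sets of the x type and 18 of the s type, which the array's naming marks as able to hybridise with more than the named transcript. Many respiratory chain genes also have processed pseudogenes, and signal from such copies could not be separated from the named gene.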

How the data were processed

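Hippocampal RNA of 16 pools was hybridised to 1 array each. The deposited values are linear intensity values, which per the submitters' processing notes come from MAS5 (version not given in the sources used here), and the mean without the outer 2% at each end was 500 on all arrays. Low MAS5 intensities are noisy because a mismatch signal is subtracted. The 64 Affymetrix controls were dropped. The scale was log2(intensity + 10), so that changes of dim probe sets are understated. Probe sets above 99 on 2 or more arrays were kept. One limma fit (lmFit and eBayes, two-sided) held all 16 arrays with a coefficient per group (10 residual and 3.44 prior degrees of freedom), each transgenic group was compared with its littermates, and p-values were adjusted over 27047 probe sets (R 4.3.3, limma 3.58.1, data.table (version 1.17.8); Python 3.11.15 and matplotlib 3.10.9 for figures). Intervals are 95% intervals of the moderated fit. The number of arrays limits the precision. The method was checked on simulated data.

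The members and lists were chosen with earlier results of these data known. Named members are the called ones, the highest and lowest of each complex per transgene comparison, the isoform pairs of complex IV, and up to 5 called members in each direction of the other comparisons. Core subunits and CRE genes were named for their role, and other probe sets of named genes for comparison. From each pathway list the called genes or the 2 of highest mean are named. Alternatives were the pseudocount, filter, scaling, arrays in the fit, variance model, array weights, 1 probe set per gene, a replicate block and leaving out each array, and, added after seeing the data, 2 arrays of high mean intensity left out together.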

Additional observations from a re-analysis of the deposited data

How the results depend on the processing

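No direction among called members reversed in any alternative run. The 1 member called at 3 weeks of VP16-CREB, Cox7a1, was lost (0 members called) with no filter (adjusted p = 0.0941), with each of the 6 arrays of that comparison left out in turn (range 0 to 0 called) and, chosen after seeing the data, with control pool 2 and VP16-CREB pool 1 left out together. It was also lost with the replicate number as a block (0 called, adjusted p = 0.0558), but no label ties pools of the same number together, and in neither cohort with 3 numbers were all 3 correlations above 0.1: pools of the same number deviated with correlations of -0.16, -0.23 and 0.22 in that cohort, 0.15 at 1 week and -0.052, 0.41 and 0.27 in the A-CREB cohort, where pool 1 of both groups also shared a low Xist signal. The other paired fits changed no count of members by more than 1.5 times. Array weights gave 3 calls, Cox7a1 and Ndufa3 1430149_at higher and Ndufs4 1418117_at lower. The share of all probe sets called in that run is not reported here. The 3 kept probe sets of Ndufs4 differed by -0.33 to 0.20 at 3 weeks in the main fit. Leaving out 1 array moved the members' median from -0.149 to 0.026 at 3 weeks, from -0.074 to 0.169 at 1 week (without control pool 1 or 2 it moved by more than the spread between pools, 0.107) and from -0.049 to 0.037 with A-CREB. Between the 3-week and the A-CREB controls 9 members were called, and 6 to 8 with 1 array left out. With only the brightest probe set per gene 3 members were called. That run tests fewer members and leaves out the 7 higher ones of the 9, so these 3 are not all among the 9. In that comparison the calls of Uqcrc2, Ndufa12 and Cox8b were lost in 11, 6 and 4 of the alternatives. For the losses not set by fewer arrays or probe sets, the cause was not tested. At dim probe sets, MAS5 signal near background limits what can be resolved.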
